A study of Caenorhabditis elegans with 2 samples.

Results

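Nuclear hormone receptor genes were examined as targets of ATHP-1, a Caenorhabditis elegans protein that carries AT-hooks and a PHD finger, in anti-GFP chromatin immunoprecipitation and sequencing (ChIP-seq) of whole animals. The members were the protein-coding genes whose symbol begins with nhr- in the Ensembl annotation of the WBcel235 (ce11) genome, 269 of 19973 protein-coding genes. There was 1 group with 2 biological replicates, per the labels: strain OP685, unc-119(tm4063) III with the transgene wgIs685, mixed-sex young adults 64 hours after release from first-stage larval arrest. All animals carried ATHP-1 with a C-terminal GFP-FLAG tag in addition to the unc-119 mutation, and no untagged group was analysed here. The sources used here do not say whether the untagged gene was still present. Whole animals were used, so fewer cells with ATHP-1 at a site and weaker binding per cell cannot be told apart. A receptor gene is called bound below when the promoter window of 1 of its annotated 5′ ends, reaching 500 bp upstream and 200 bp downstream, held a summit of the authors' reproducible list. The strength of a peak is the signal score that the authors deposited. The sources used here do not name the caller or say how the score relates to a control. It ran from 106 to 1172 in the reproducible list, with a median of 143. Read depth is unknown for these lists.

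Nuclear hormone receptors are transcription factors with a zinc finger DNA-binding domain and a ligand-binding domain that in many members takes a small lipophilic molecule. Nematodes hold an unusually large family, most of which is thought to descend from an ancestor related to HNF4, alongside a small set with clear orthologs in insects and vertebrates. In worms, characterised members act in fat and propionate metabolism, molting, dauer formation and embryonic development. AT-hooks are short motifs that contact the minor groove of AT-rich DNA, and PHD fingers often read histone tails.

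Of the 269 receptor genes, 5 were bound: nhr-47, nhr-49, nhr-68, nhr-1 and nhr-41. The sequence under 4 of these summits is shown because each came with a different setting: a promoter facing a chaperone gene, a promoter facing the gene H12C20.7, a promoter with no facing gene, and a tRNA gene inside the receptor gene. Each line gives 201 bases centred on the summit, 5′ to 3′ on the strand of the receptor gene, from the RefSeq copy of the ce11 build, and capitals mark runs of at least 8 bases that are all A or T. All 4 receptor genes lie on the plus strand. The windows are chrV:5505126-5505326 for nhr-47, chrV:11572996-11573196 for nhr-68, chrX:17513683-17513883 for nhr-1 and chrIV:1388139-1388339 for nhr-41.
nhr-47: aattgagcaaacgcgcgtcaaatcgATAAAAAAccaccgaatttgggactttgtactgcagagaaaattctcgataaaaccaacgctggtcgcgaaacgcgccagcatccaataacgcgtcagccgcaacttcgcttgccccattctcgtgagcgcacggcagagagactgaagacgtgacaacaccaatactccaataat
nhr-68: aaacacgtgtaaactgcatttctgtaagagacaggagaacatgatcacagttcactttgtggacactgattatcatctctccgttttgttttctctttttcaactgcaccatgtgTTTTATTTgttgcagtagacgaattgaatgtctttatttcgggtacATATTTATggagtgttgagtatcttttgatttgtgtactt
nhr-1: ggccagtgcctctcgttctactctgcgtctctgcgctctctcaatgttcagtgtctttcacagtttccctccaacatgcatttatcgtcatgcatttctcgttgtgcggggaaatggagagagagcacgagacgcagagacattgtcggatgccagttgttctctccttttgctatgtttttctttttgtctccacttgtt
nhr-41: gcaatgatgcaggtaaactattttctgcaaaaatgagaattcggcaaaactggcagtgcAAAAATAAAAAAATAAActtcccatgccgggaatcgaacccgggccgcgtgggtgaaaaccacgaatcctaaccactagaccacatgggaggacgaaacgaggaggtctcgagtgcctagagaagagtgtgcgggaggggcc
The GC content of these windows was 48.8% for nhr-47, 35.3% for nhr-68, 47.8% for nhr-1 and 49.8% for nhr-41, and it was 42.3% for nhr-49. The median over all reproducible windows was also 42.3%, with quartiles of 36.8 and 47.8%, so that nhr-68 lay under the first quartile while nhr-47 and nhr-41 lay above the last. Runs of A or T of at least 8 bases were present in 74.6% of reproducible windows, and the median over all of these windows was 16 bases in such runs. The nhr-68 window held 16 bases in 2 runs, the nhr-47 window 1 run of 8 bases and the nhr-41 window 1 run of 17 bases. None was found in the nhr-1 and nhr-49 windows. The word GGTTCGA, which occurs in the B box inside many tRNA genes, was searched on both strands without mismatches. It was present on the minus strand of the nhr-41 window, from base 93 as printed, and in no other of the 5 windows. It was in 64.6% of the 223 reproducible windows with a summit within 200 bp of a tRNA gene and in 3.09% of the 1426 others.

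Binding of receptor promoters was infrequent. The 5 bound genes were 1.86% of the family (exact binomial 95% interval 0.606 to 4.28%), while 4.71% of all protein-coding genes were called by the same rule. The share of all genes thus lay above the upper end of the receptors' interval, and the ratio of the shares was 0.395. The interval covers counting error only and treats genes as independent. With the top of the replicate 1 list alone, cut to the length of the reproducible list, 4 receptor genes were called (1.49%) against a background of 4.20%, and with that of replicate 2 alone 4 were called (1.49%) against 5.00%. Both replicates called nhr-47, nhr-49 and nhr-1; nhr-41 was called in replicate 1 but not in replicate 2, and nhr-68 in replicate 2 but not in replicate 1.

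nhr-47 (WBGene00003637, chromosome V, 5505253 to 5509956, plus strand) had the strongest promoter summit of the family. Its peak, from 5505016 to 5505435, had a pooled signal of 216 and ranked 262 in the reproducible list. The signal was 97.2 in replicate 1 (rank 323) and 114.1 in replicate 2 (rank 314), and the replicates ranked it almost alike. The summit at 5505226 lay 27 bp upstream of the only annotated 5′ end, within an exon of the noncoding RNA gene C24G6.10, which runs on the opposite strand. It was also 369 bp upstream of the divergent gene dnj-19, a DnaJ-type chaperone gene, so the peak cannot be given to nhr-47 alone. The replicate summits were 15 and 9 bp from the pooled summit.

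nhr-49 (WBGene00003639, chromosome I, 9869651 to 9874680, plus strand) encodes an HNF4-like receptor that controls fatty acid desaturation and oxidation, also during fasting. Its peak, from 9869107 to 9869526, had a pooled signal of 169.8 and rank 506, with 88.5 in replicate 1 (rank 432) and 85.8 in replicate 2 (rank 667). The summit at 9869317 lay 334 bp upstream of the most upstream of its 6 annotated 5′ ends, in intergenic sequence. It was in the window of no other protein-coding gene, and no tRNA gene lay within 200 bp. The replicate summits were 11 and 5 bp from the pooled one, the closest placement among the 5 genes.

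nhr-68 (WBGene00003658, chromosome V, 11573440 to 11575709, plus strand) encodes a receptor that, with NHR-10, activates the propionate shunt genes when vitamin B12 is low. Its pooled signal was 129 (rank 1042, peak from 11572886 to 11573305). The replicates differed widely here: the signal was 31.1 in replicate 1, rank 7231, and 91.8 in replicate 2, rank 570. The value in replicate 1 was under 54.3, the lowest signal in the top of that list, and its summit lay 80 bp from the pooled summit against 13 bp for replicate 2. The pooled summit was 344 bp upstream of nhr-68 and 106 bp upstream of the divergent gene H12C20.7, which was the nearer start. With each summit given only to its nearest 5′ end, nhr-68 was not bound.

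nhr-1 (WBGene00003600, chromosome X, 17514063 to 17528197, plus strand) had a pooled signal of 122 and rank 1175 (peak from 17513573 to 17513992). Its signal was 57.7 in replicate 1 (rank 1399) and 68.6 in replicate 2 (rank 1190), both inside the top of their lists. The summit at 17513783 lay 280 bp upstream of the outermost of its 4 annotated starts, that of transcript R09G11.2a.2, with no other gene in the window. The RefSeq annotation of the same build starts nhr-1 further downstream, 5952 bp from the summit, and with RefSeq starts the gene was not bound.

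nhr-41 (WBGene00022423, chromosome IV, 1386215 to 1399353, plus strand) is the worm ortholog of the TR2 and TR4 receptors of vertebrates. Its pooled signal was 118 (rank 1292, peak from 1388029 to 1388448), with 56.1 in replicate 1 (rank 1491) and 46.8 in replicate 2 (rank 2937). The latter was under 59.95, the lowest signal in the top of the replicate 2 list, and its summit was 90 bp from the pooled summit, against 5 bp for replicate 1. The pooled summit at 1388239 was 142 bp downstream of an internal start, that of transcript Y104H12A.1b.1. It fell inside the tRNA-Glu gene Y104H12A.t1 (1388216 to 1388287, minus strand), 48 bp from the 5′ end of that gene. This was the only bound receptor gene with a tRNA gene within 200 bp, and without such summits 4 receptor genes were bound against 4.54% of all genes. Binding of the receptor promoter and of the tRNA gene cannot be told apart here.

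**Figure D1:**
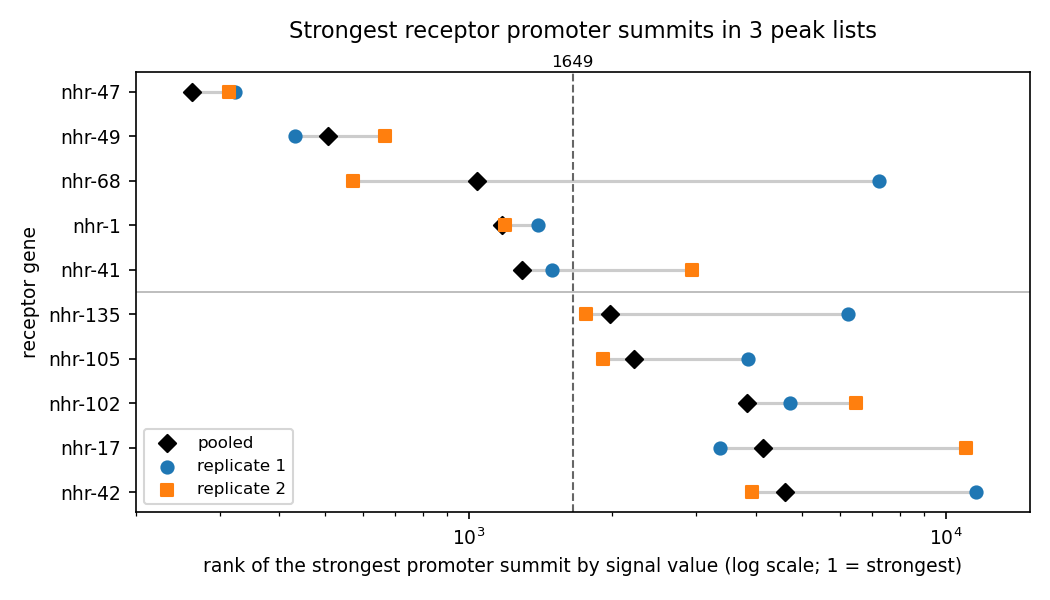
Rank by signal value, on a log scale, of the strongest promoter summit of the 5 bound receptor genes (upper part) and the 5 next strongest (lower part) in the pooled list (diamonds) and in replicates 1 (circles) and 2 (squares); the dashed line marks the length of the reproducible list. nhr-47, nhr-49 and nhr-1 lie left of the line in all 3 lists, while nhr-68 reached rank 7231 in replicate 1 and nhr-41 rank 2937 in replicate 2.

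Below the reproducible threshold, nhr-135, nhr-105, nhr-102, nhr-17 and nhr-42 had the next strongest pooled summits in their windows. nhr-135 had a pooled signal of 96.8 (rank 1977), with 33.0 in replicate 1 (rank 6235) and 58.3 in replicate 2 (rank 1762). nhr-105 had 91.5 (rank 2220), with 39.3 and 56.3 in replicates 1 and 2 (ranks 3840 and 1911). A gap separated these from the other 3, whose pooled signals were 71.0 for nhr-102, 68.6 for nhr-17 and 65.5 for nhr-42 (ranks 3837, 4142 and 4607). No other gene shared these 5 summits and no tRNA gene lay within 200 bp of them. In none of the 5 did a replicate reach the top of its own list, the nearest being nhr-135 in replicate 2. Each replicate value is that of the strongest summit in the window, which was not always at the pooled site. The replicate 1 summit lay 295 bp from the pooled summit for nhr-105 and 142 bp from it for nhr-17. For nhr-135 the replicate 2 summit lay more than 100 bp from the pooled summit. The remaining replicate summits of the 5 genes were at most 46 bp from the pooled ones.

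The receptor share stayed under that of all genes at each rank limit examined, and the ratio of the shares was lower at rank 5000 than in the reproducible list and higher beyond. Among the 5000 strongest pooled regions, 10 receptor genes had a summit in their window (3.72%) against 10.9% of all genes. Among 10000 regions the counts were 26 (9.67%) against 16.6%, among 20000 they were 53 (19.7%) against 24.6%, and among all 30000 they were 69 (25.7%, exact binomial 95% interval 20.5 to 31.3%) against 30.7%. The ratio of shares was 0.342 at rank 5000 and 0.834 at rank 30000. The full pooled list includes background regions, per the authors' file names, so the weaker summits are not called binding. Over the genes with a pooled summit, the median rank of the best one was 12541 for receptors and 8706 for all genes. The 64 receptor genes with a pooled summit that were not bound had signals from 25.3 to 96.8.

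**Figure D2:**
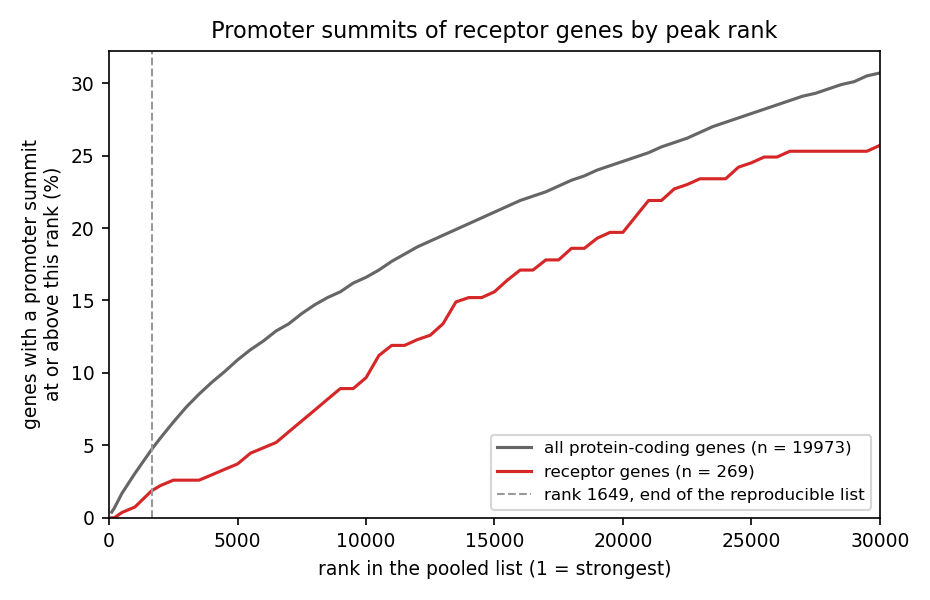
Share of genes with a summit in the promoter window at or above each rank of the pooled list, for the 269 receptor genes and all 19973 protein-coding genes; the dashed line marks the length of the reproducible list. The receptor line runs below the line of all genes, at 1.86 against 4.71% at the dashed line and 25.7 against 30.7% at rank 30000.

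Receptor genes with a summit in 1 replicate often had none in the other. A summit of any rank lay in the window of 67 receptor genes in replicate 1 (24.9%, against 29.8% of all genes) and of 78 in replicate 2 (29.0%, against 31.6%). There were 34 receptor genes in both lists, 50.7% of those in replicate 1 and 43.6% of those in replicate 2. Over all genes these shares were 66.9 and 63.2%. In 17 of the 34, the 2 best summits lay within 100 bp of each other, and over these 17 Spearman's rho between the replicate signals was 0.744. The points of that correlation share their libraries, and it is given as a description. The share within 100 bp is not given here for all genes, so it is not read as particular to receptors. No list placed a summit in the windows of 153 of the 269 receptor genes. The same held for 11416 of all 19973 protein-coding genes, a similar share.

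**Figure D3:**
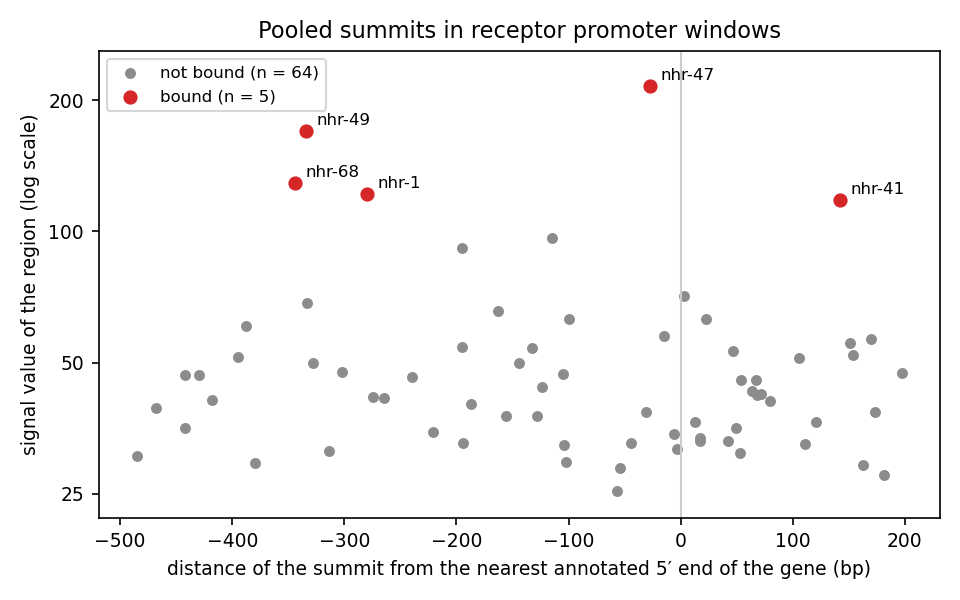
Position of the strongest pooled summit of 69 receptor genes relative to the nearest of the gene's annotated 5′ ends (x axis, bp, negative upstream) and its signal value (y axis, log scale). The 5 bound genes (red) have signals of 118 to 216, and the 64 others (grey) up to 96.8. This order follows from the definition of bound, since the reproducible list was the strongest stretch of the pooled list. Of the 5 bound summits 4 lie upstream, and that of nhr-41 lies 142 bp downstream.

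The positions of receptor summits were also compared with those of all genes. Of the 69 receptor genes with a pooled summit, 43 (62.3%) had it upstream, against 70.9% of all genes with one. The median position over the 69 was -100 bp, and over all genes -126 bp. The window reaches 500 bp upstream and only 200 bp downstream, so evenly placed summits would also lie mostly upstream. No preference for upstream sites is read from these values. The best pooled summit was also in the window of another protein-coding gene for 3 of the 69 (4.35%), against 20.8% of all genes with a pooled summit. No receptor gene shared its best summit with another receptor gene. A tRNA gene lay within 200 bp of the best pooled summit for 2 of the 69 (2.90%), nhr-41 and nhr-193, and for 62 of the 6140 of all genes with a pooled summit (1.01%). A count of 2 does not resolve a difference. The nhr-193 summit had a signal of 60.7 (rank 5548) and lay 141 bp downstream of the 5′ end of a tRNA-Asn gene, F57G8.t2. nhr-193 is named for this tRNA gene, after its values were seen.

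The family is concentrated on chromosome V, where a smaller share of other promoters was bound than on any other autosome. Of the 269 receptor genes, 167 (62.1%) lie on V, and 2 of them were bound (1.20%, exact binomial 95% interval 0.145 to 4.26%) against 3.17% of other genes on V. On chromosome I 1 of 23 was bound (against 6.83% of other genes), on IV 1 of 33 (against 5.23%) and on X 1 of 23 (against 1.37%). The 15 receptor genes of chromosome II and the 8 of III were not bound, which allows shares of up to 21.8 and 36.9%, the upper ends of the exact binomial 95% intervals, against 5.04 and 7.90% of other genes there. Had receptors been bound at the rate of the other genes of their chromosomes, 10.3 would have been bound. The observed 5 were 0.486 of that number, and the interval of the ratio, 0.158 to 1.12, includes 1. A count of 5 therefore did not resolve whether receptors were bound less than other genes of the same chromosomes.

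**Figure D4:**
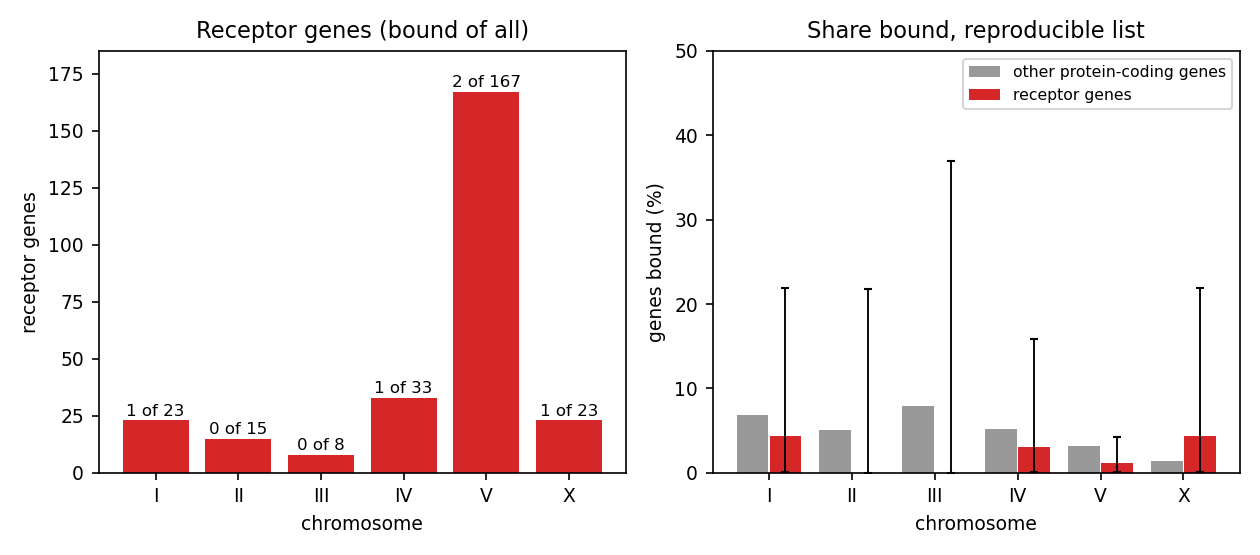
Left, number of receptor genes on each chromosome, with bound of all written above each bar; right, percent of genes bound for other protein-coding genes (grey) and receptor genes (red), with exact 95% binomial intervals for the receptors. Chromosome V holds 167 receptor genes, and the intervals on the other chromosomes are wide.

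Receptor genes also differed from other genes in how they are arranged. A gene starting head to head, on the opposite strand within 1000 bp upstream, was present for 18 receptor genes (6.69%) against 17.7% of all protein-coding genes. Of all genes starting head to head 11.0% were bound, and 3.35% of the rest. Among receptors, 2 of the 18 head-to-head genes were bound, nhr-47 and nhr-68, and 3 of the other 251 (1.20%). With the expected number taken within chromosome and head-to-head class, the observed count was 0.573 of it. No interval was computed for this ratio, so no deficit is read from it. These classes were set after the first results were seen, and their part in the family's count was not tested.

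Many receptor genes stand in rows. There were 137 members (50.9%) next to another member in the order of protein-coding genes, 107 of them on chromosome V, with up to 9 in a row. None of the 137 was bound (exact binomial 95% upper limit 2.66%), while 5 of the 132 that stand apart were (3.79%, interval 1.24 to 8.62%), beside 4.71% of all genes. On chromosome V, where most of the 137 lie, 3.17% of other genes were bound. This split was not planned, the 2 intervals overlap, and genes in a row may not be independent. No difference between the 2 groups is read from it. At any pooled rank a summit was present for 29 of the 137 (21.2%) and for 40 of the 132 (30.3%), beside 30.7% of all genes. More than 1 annotated 5′ end was present for 95 receptor genes (35.3%) against 26.3% of all genes. Of these 95, 4 were bound (4.21%), against 7.94% of all genes with more than 1 5′ end. Of the 174 with a single 5′ end only nhr-47 was (0.575%), against 3.56% of all such genes. A gene with more 5′ ends has more window in which a summit can fall. The promoter window of receptors had a median GC content of 34.5% against 35.0% for all genes, and 36.9% for all bound genes. For the bound receptors it was 36.2% for nhr-47, 39.5% for nhr-49, 33.0% for nhr-68, 40.8% for nhr-1 and 41.1% for nhr-41, taken at the most upstream 5′ end.

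**Figure D5:**
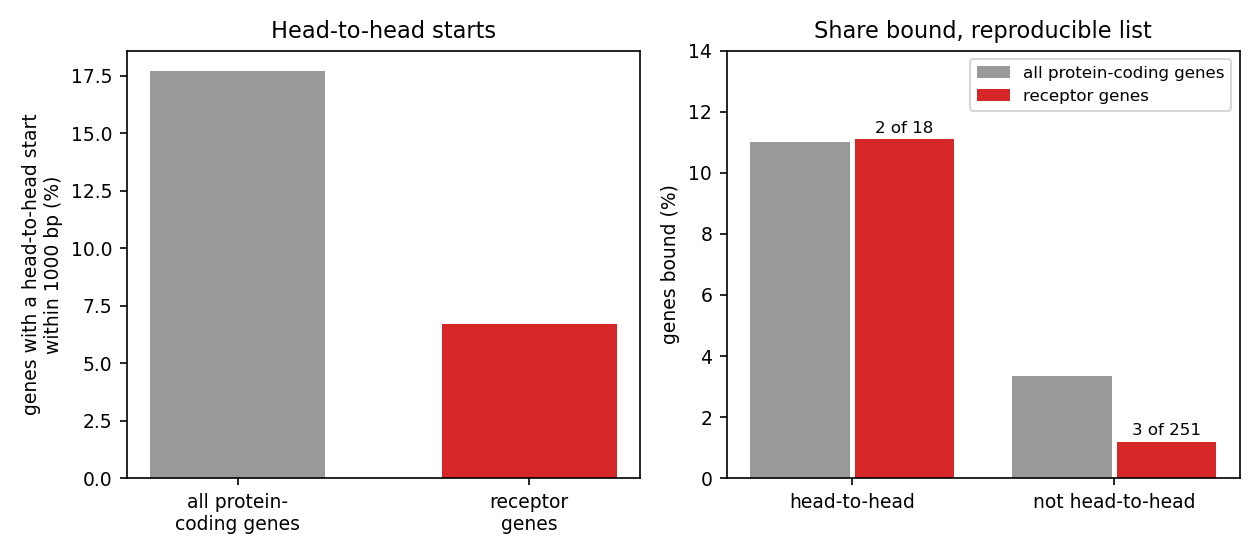
Left, percent of all protein-coding genes and of receptor genes with another gene starting head to head within 1000 bp; right, percent of genes bound with and without such a start. Receptor genes were less often head to head (6.69 against 17.7%), and those that were had 2 of 18 bound, a share of 11.1% beside 11.0% for all such genes.

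Of 11 receptors known from metabolism, nhr-49 and nhr-68 were bound and 7 had a pooled summit at any rank. Their partners had weaker summits or none: nhr-80, which acts with NHR-49 on desaturase genes, had a pooled signal of 41.5 (rank 13087), nhr-66 had 47.1 (rank 10008), and nhr-13 had no summit in any list. nhr-10, which acts with NHR-68, had 36.5 (rank 16723), and nhr-76 and nhr-62 had no summit in any list. nhr-114 had no pooled summit, but ranked 19517 in replicate 1 and 9568 in replicate 2. Of 9 receptors with clear orthologs outside nematodes only nhr-41 was bound. The NR4A ortholog nhr-6 had a pooled signal of 52.0 (rank 7969) and nhr-8, which acts in xenobiotic and cholesterol responses, 49.8 (rank 8824). The Tailless ortholog nhr-67 and nhr-85, related to E75 and Rev-erb, had no summit in any list. The Ftz-F1 ortholog nhr-25 was in the list of replicate 2 alone (rank 26370), and nhr-23, the ROR ortholog needed for molting, in that of replicate 1 alone (rank 5993). nhr-48 stood at rank 2424 in replicate 2 with no summit in replicate 1 or the pooled list. Of 7 receptors of development none was bound, and nhr-40 differed widely between lists, with 53.6 in replicate 2 (rank 2132), 39.3 in the pooled list (rank 14546) and no summit in replicate 1. The background for a bound gene was 4.71%; in lists of 7 to 11 genes, counts of 0 to 2 resolve no departure from it. Over the 23 genes of these lists, 3 were bound and 13 (56.5%) had a pooled summit, and of the 246 other receptor genes 2 were bound and 56 (22.8%) had one. Of all genes 30.7% had a pooled summit. The listed genes were picked by role with earlier results known, and were not matched to the others for chromosome or number of annotated 5′ ends. Most of their pooled summits were below the reproducible threshold, so no preference for the listed receptors is read from these shares.

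Receptor genes with other names and genes that work with the receptors were not bound at the reproducible threshold. Of all genes 4.71% were bound, and counts of 0 among 5 and among 14 genes resolve no departure from that share. The dauer receptor gene daf-12 had a pooled signal of 34.6 (rank 18490), and fax-1, odr-7, sex-1 and unc-55 had no summit in any list. Of 14 partner, ligand synthesis and target genes, 0 were bound, but 4 stood just past the threshold, at ranks 1837 to 2076. These 4 of 14 (28.6%) were in the 5000 strongest pooled regions, where 10.9% of all genes had a summit. The list is short and was chosen with earlier results known, so no departure from that share is read from it. The count of 0 rests on both replicates: the top of the replicate 2 list alone called all 4, against 5.00% of all genes, and that of replicate 1 alone called 1, fat-6, against 4.20%. The 4 genes were smo-1, the SUMO gene, with a pooled signal of 100.3; hphd-1, a propionate shunt enzyme gene, with 100.2; din-1, which encodes a corepressor of DAF-12, with 99.4; and the stearoyl-CoA desaturase gene fat-6, with 94.6. The weakest reproducible peak had a signal of 106. In each of the first 3 replicate 2 was the stronger by rank: smo-1 ranked 5358 and 1433 in replicates 1 and 2, hphd-1 8575 and 1561, and din-1 21863 and 649. The pooled fat-6 summit was also in the window of the gene ZK822.9, so it cannot be given to fat-6 alone. Of the other 10, acs-2, an acyl-CoA synthetase gene of the fasting response, had a pooled signal of 50.8 and mdt-15, a Mediator subunit gene, 32.7. The mdt-15 summit was also in the window of the gene R12B2.13. fat-7, daf-9, daf-36, hsd-1 and cbp-1 had no summit in any list.

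A few reproducible peaks lay in or near receptor genes but outside their windows. Within the body of nhr-17 (chromosome X, 12663837 to 12667854, minus strand) a reproducible summit at 12665313 had a signal of 211, rank 286, close to that of nhr-47. It lay 85 bp downstream of the 5′ end of the tRNA-Tyr gene C02B4.t2 (12665228 to 12665311, plus strand) and in an exon of the noncoding RNA gene C02B4.8. In an intron of nhr-19 (chromosome II) a summit at 9603593 had a signal of 135 (rank 940), and no gene for a tRNA or for a small nucleolar or nuclear RNA lay within 200 bp. Just outside the window, nhr-255 (chromosome X) had a summit of signal 155 (rank 659) 547 bp upstream of its start, inside the tRNA-Leu gene ZK678.t1. nhr-142 (chromosome V) had one of signal 150.3 (rank 729) 504 bp upstream, which was in the window of F44E7.9. nhr-19, nhr-142 and nhr-255 are named for these peaks, after their values were seen. With a window from 1000 bp upstream to 500 bp downstream, 7 receptor genes (2.60%) were bound against 6.22% of all genes. The share of all genes with a reproducible summit in the gene body is not given here. These peaks are therefore not read as particular to receptors. Where a summit fell at a tRNA gene, binding there and binding tied to the receptor gene cannot be told apart.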

How the data were processed

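ChIP-seq with an anti-GFP antibody was made from 2 biological replicates, per the labels. The authors deposited a pooled list and a list per replicate of 30000 regions each, and, per the file names and the readme text, a reproducible list cut at an irreproducible discovery rate. Signal values are scores as deposited by the authors. The deposited q-values are on a −log10 scale, and 1393 reproducible peaks share the highest, 3.44, so ranks rest on signal. Each reproducible peak was among the pooled regions, of which the list was the strongest stretch. The sources used here name no aligner, caller or threshold; the labels list a possible control experiment, but not how it entered the scores. Lists on ce10 were not used here.

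Summits were matched to 29314 5′ ends of 19973 protein-coding genes (Ensembl release 115, WBcel235) from 500 bp upstream to 200 bp downstream with Python 3.11.15, pandas 2.3.3, numpy 2.4.6, scipy 1.17.1 and matplotlib 3.10.9, tested on simulated data. tRNA genes (612) came from the same annotation and sequences from RefSeq. Intervals are exact binomial (Clopper-Pearson) and cover counting error only. For a count against an expected number, the binomial limits of the count (1.63 to 11.5 for 5 bound members) were divided by the expected number, taken as fixed. The expected number sums members times the bound share of other genes over chromosomes. No test between groups was possible with 1 group.

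Named genes are the bound members, those called in either replicate alone, listed genes in the first 5000 pooled regions and the 5 strongest members outside the reproducible list. Other listed genes are named for their role. Members, lists and tests were chosen with earlier results of these data known.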

Additional observations from a re-analysis of the deposited data

How the results depend on the processing

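The receptor share stayed below that of all genes under each of the alternatives run, with ratios of 0.286 to 0.476, and below the chromosome expectation, with ratios of 0.352 to 0.588. The count of 5 bound receptors fell to 2 with the 824 strongest reproducible peaks (nhr-47 and nhr-49) and to 2 with a window of 200 bp to each side (nhr-41 and nhr-47). The count of 69 with any pooled summit fell to 26 with the 10000 strongest pooled regions and rose to 104 with a window from 1000 bp upstream to 500 bp downstream; both follow from fewer regions or wider windows. Without 1 replicate, the bound count was 4 in both cases, the ratio to all genes 0.298 to 0.354, the ratio to the chromosome expectation 0.363 to 0.459, and the count at any rank 67 to 78. RefSeq starts and the strata by chromosome part (ratio 0.499) and head-to-head start (0.573) were chosen after seeing the data. No paired analysis was possible because there was 1 group. Depth is unknown, so a missing summit does not show absence of binding.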

Other observations

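The nhr-1 window held an inverted repeat of 11 bp, ctctgcgtctc from base 21 and gagacgcagag from base 129 as printed. A perfect inverted repeat at least that long was found in 71 reproducible windows (4.31%). At fat-6, the best summit of replicate 1 lay 926 bp from the pooled summit and that of replicate 2 lay 39 bp from it, with ranks of 1291 and 1362 in their own lists.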
